A study of Arabidopsis thaliana with 18 samples.

Results

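The 3 libraries numbered replicate 2 at 29 °C were compared with the 3 numbered replicate 1 at 29 °C, 6 libraries of the 18 in an RNA-sequencing series of Arabidopsis seedlings. Each pair came from 1 genotype: wild type (WT), a bbx18 bbx23 double mutant and a pif4 mutant, all in the strain Columbia and all on day 7. The other libraries were replicate 3 of each genotype at 29 °C and replicates 1 to 3 of each genotype at 22 °C. BBX18 and BBX23 belong to the B-box family of zinc finger proteins, and PIF4 is a bHLH transcription factor known for promoting growth in warmth. The labels give no mutant allele, no length of the time at 29 °C, and neither the hour nor the light at harvest. They do not tell whether replicates of a group were separate sowings, so any p-value reflects the spread among these libraries, which may be technical. RNA came from seedlings, and in such bulk samples fewer cells of a type and less RNA per cell cannot be told apart.

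The authors deposited FPKM values, which are read numbers scaled for gene length and for library size. A difference is given as replicate 2 minus replicate 1 on log2(FPKM + 1), within a genotype, for 19116 of 33602 genes, those that reached 1 FPKM in 3 or more libraries. The addition of 1 understates the differences of low genes. The 580 genes described here were chosen by these same differences, as those that were 1 log2 or more apart, and on the same side, in each genotype, so their values at 29 °C are a description and carry no test. BBX18 RNA in replicate 2 and replicate 1 at 29 °C was 51.3 and 7.12 FPKM in bbx18 bbx23, against 64.3 and 9.43 FPKM in WT, and BBX23 was listed at 0 in all 18 libraries. PIF4 RNA was 11 and 9.09 FPKM in pif4, against 16.1 and 19.4 FPKM in WT. Over the 9 libraries at 29 °C, PIF4 differed by -0.845 ± 0.144 log2 (SE) between pif4 and WT, with a limma adjusted p of 0.212. PIF4 RNA was thus lower in pif4 but not called. The RNA levels of the mutated genes therefore did not settle the genotype labels.

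In plants, the circadian clock consists of transcription factors that peak at successive times of day, with CCA1, LHY and the LNK coactivators early and the evening complex late. Light acts on many of the same genes through photoreceptors and HY5, and excess light raises the early light-induced proteins (ELIPs) and other protectors of the chloroplast. Warmth and excess light also raise heat shock proteins, chaperones that are controlled by heat shock factors. Darkness and low sugar raise another set of genes, among them DRM1, SEN1 and class II trehalose phosphate synthases.

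At 29 °C, 324 genes were at least 1 log2 higher in replicate 2 than in replicate 1 in all 3 genotypes, which is 1.69% of the genes compared, and 256 were lower, which is 1.34%. Taken singly, 962 genes differed by that much either way in bbx18 bbx23 (5.03%), 1197 in pif4 (6.26%) and 1002 in WT (5.24%). At 22 °C the same comparison of replicate 2 with replicate 1 gave 5 higher genes (0.0262%) and 4 lower genes (0.0209%). Over all 19116 genes, the differences at 29 °C had a Pearson correlation of 0.80 between bbx18 bbx23 and WT, 0.75 between pif4 and WT, and 0.82 between both mutants. At 22 °C these correlations were -0.17, 0.45 and -0.10. Genes are not independent replicates, and the correlations are a description.

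The shared direction was also seen in a genotype left out of the choice of genes. The comparison of replicates was itself chosen with the values of all 3 genotypes known, so the shares below carry no test. Genes picked on the other genotypes alone had the same sign in the genotype left out for 98.1% to 99.7% of cases, over 3 genotypes and both directions. Between 76.9% and 91.8% of them passed 1 log2 there too. The median difference of these genes was 1.43 log2 for 411 higher genes in WT, 1.56 log2 for 359 in bbx18 bbx23 and 1.63 log2 for 353 in pif4. For the lower genes it was -1.41 log2 for 312 in WT, -1.38 log2 for 293 in bbx18 bbx23 and -1.35 log2 for 333 in pif4. At the threshold, AT5G01260 was the higher gene just inside, with a smallest difference of 1.0036 log2, and CYTC-2 just outside, with 0.9997 log2. Among lower genes, XYL4 was just inside at 1.0007 log2 and AT5G26200 just outside at 0.9999 log2.

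**Figure D1:**
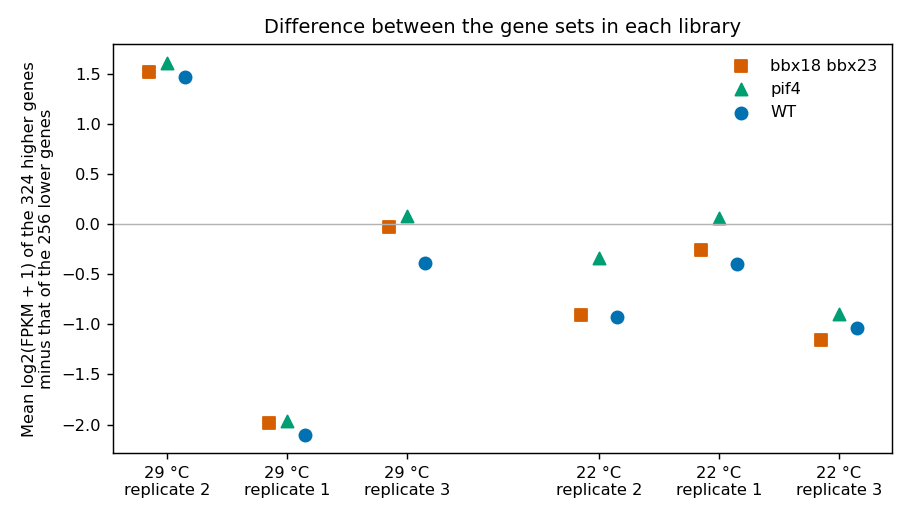
Each point is 1 library, placed by the mean log2(FPKM + 1) of the 324 higher genes minus that of the 256 lower genes. Replicate 2 at 29 °C lies at 1.47 to 1.61 and replicate 1 at 29 °C at -2.10 to -1.96, which the choice of genes fixes, while replicate 3 at 29 °C lies at -0.39 to 0.08 and the 9 libraries at 22 °C lie at -1.16 to 0.06.

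Promoters of 4 genes are shown because they come from groups that were far apart between these replicates and hold motifs of factors known in them. The stretches are the last 150 or 300 bases before the annotated gene start in RefSeq's TAIR10.1 assembly, read on the gene's own strand, and capitals mark the motifs. They are PRR9 (chr2:19232307-19232606, plus strand), ELIP1 (chr3:8085670-8085819, minus strand), BBX30 (chr4:8708691-8708840, plus strand) and HSFA2 (chr2:11135474-11135623, plus strand), and none overlaps another annotated gene.
PRR9: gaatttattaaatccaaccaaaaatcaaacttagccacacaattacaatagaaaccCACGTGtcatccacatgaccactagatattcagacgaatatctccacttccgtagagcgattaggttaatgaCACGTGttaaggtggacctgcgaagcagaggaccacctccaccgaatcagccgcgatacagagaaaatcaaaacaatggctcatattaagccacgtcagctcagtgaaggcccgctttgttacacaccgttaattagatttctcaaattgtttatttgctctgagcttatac
ELIP1: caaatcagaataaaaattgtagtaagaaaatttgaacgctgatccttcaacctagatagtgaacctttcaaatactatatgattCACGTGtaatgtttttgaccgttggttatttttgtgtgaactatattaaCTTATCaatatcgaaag
BBX30: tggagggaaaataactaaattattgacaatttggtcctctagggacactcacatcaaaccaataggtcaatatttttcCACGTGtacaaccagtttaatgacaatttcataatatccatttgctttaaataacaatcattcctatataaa
HSFA2: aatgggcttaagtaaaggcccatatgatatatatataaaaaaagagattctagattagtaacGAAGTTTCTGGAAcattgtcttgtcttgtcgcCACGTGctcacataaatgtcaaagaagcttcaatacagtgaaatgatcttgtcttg

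The G-box CACGTG, which HY5 and the PIF factors bind, was found 244 and 172 bases before the start of PRR9, 66 bases before ELIP1, 72 bases before BBX30 and 56 bases before HSFA2. HSFA2 also had the heat shock element GAANNTTCNNGAA 88 bases before its start, and ELIP1 had the I-box GATAAG 17 bases before its start. Motifs were searched on both strands of 300 bases before each gene. A G-box lay in 16.7% of the promoters of the higher genes and 10.2% of those of the lower genes, against 8.02% of the promoters of all genes compared. The heat shock element lay in 3.1%, 0.784% and 0.511% of these promoters, in the same order, and the evening element AAAATATCT in 4.02%, 3.53% and 2.87%. The CCA1 binding site AAAAATCT lay in 10.8%, 9.41% and 7.88%, and the I-box in 12.7%, 18.0% and 14.7%. The printed promoters were picked for their motifs. None of these motifs lay in the 300 bases before BBX32, BBX31, BBX18, LNK1, LNK4, SIG5, HY5, HSP70 or HSP101. A G-box lay before 7 of 15 morning clock genes and 5 of 16 high light genes. The heat shock element lay before 2 of 15 genes for small heat shock proteins. A match of letters is a description and shows no binding, and its absence says only that the letters are not in this window.

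B-box genes held the 3 largest differences among the higher genes. BBX32 had 230 FPKM in bbx18 bbx23, 213 FPKM in pif4 and 256 FPKM in WT in replicate 2, against 1.39, 1.63 and 1.21 FPKM in replicate 1 of bbx18 bbx23, pif4 and WT. Its mean difference was 6.60 ± 0.26 log2 (SD, n = 3 genotypes), and the replicates did not overlap in any genotype. BBX31 had 160, 109 and 123 FPKM in replicate 2 of bbx18 bbx23, pif4 and WT, against 2.07, 1.18 and 0.562 FPKM in replicate 1. BBX30, a microprotein of this family with a B-box and little else, had 79.8, 58.7 and 70.6 FPKM, against 1.2, 1.31 and 0.705 FPKM.

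Other B-box genes, among them regulators of seedling light responses, were also far apart. BBX18, the gene mutated in the double mutant, was 2.71 ± 0.08 log2 higher in replicate 2 (SD, n = 3). BBX24 had 240, 237 and 257 FPKM in replicate 2 of bbx18 bbx23, pif4 and WT, against 59.9, 56 and 69.7 FPKM in replicate 1. BBX25 was 1.79 ± 0.12 log2 higher and COL2 1.51 ± 0.05 log2 higher. BBX21, an activator of HY5, had a mean difference of -0.51 ± 0.04 log2, and CO, the flowering regulator, one of 0.51 ± 0.19 log2.

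Other members of the family went the other way. BBX14 had 12.2, 12.6 and 10 FPKM in replicate 2 of bbx18 bbx23, pif4 and WT, against 148, 163 and 151 FPKM in replicate 1. BBX17 had 0.774, 1.11 and 0.604 FPKM, against 19.1, 24.9 and 17 FPKM. In each genotype replicate 2 lay below replicate 1 for both genes. Of the 28 family members compared, 11 were higher and 5 lower by the rule in all 3 genotypes, with a median of 0.29 log2, while the median of all genes was -0.01 log2. The 5 lower ones were BBX14 at -3.62 log2, BBX17 at -3.54 log2, BBX27 at -2.61 log2, BBX7 at -1.80 log2 and BBX15 at -1.70 log2. The whole family of 32 was taken up after values were seen. BBX14, BBX17, BBX24, BBX25 and COL2 overlap an opposite-strand gene, and BBX32 a neighbour on its own strand. The sources used here do not say whether counting used strand, so levels of such genes are uncertain throughout.

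**Figure D2:**
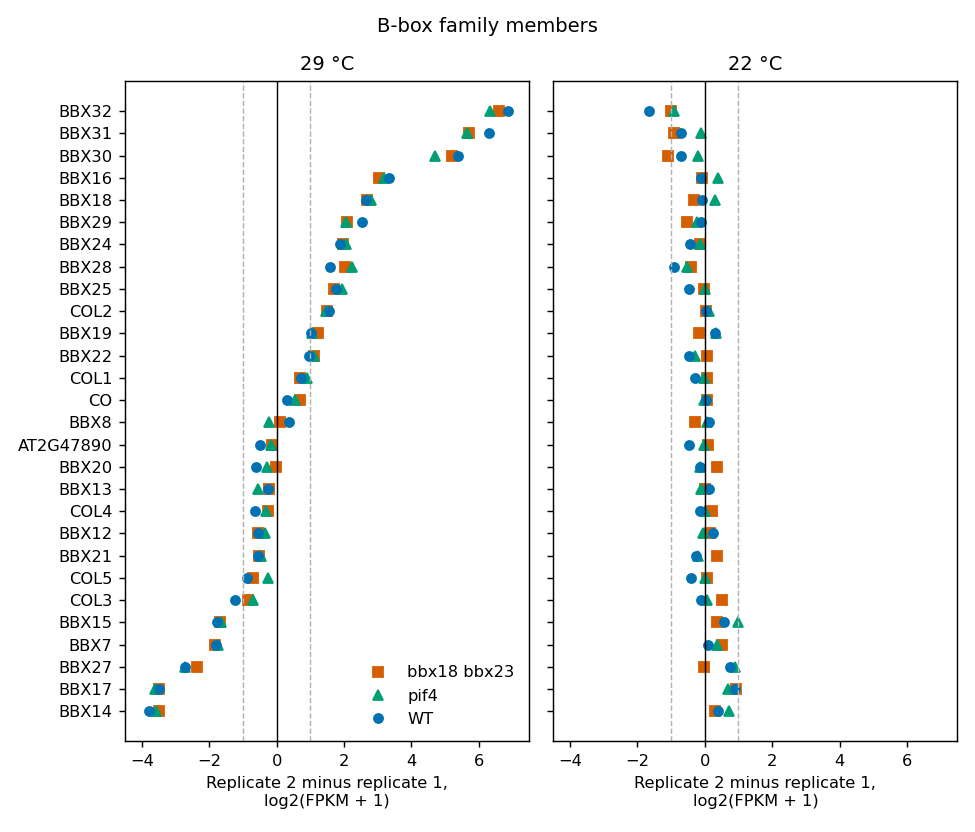
Differences of replicate 2 minus replicate 1 on log2(FPKM + 1) are plotted for the 28 B-box genes compared, at 29 °C on the left and 22 °C on the right, with 1 point per genotype and dashed lines at 1 log2 either way. At 29 °C the 3 genotypes lie close together, from BBX32 at a mean of 6.60 to BBX14 at -3.62, and at 22 °C BBX32 has a mean of -1.18 and BBX14 one of 0.46.

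Among clock genes, those known to peak early in the day were mostly higher in replicate 2. PRR9, a repressor that follows CCA1 and LHY and is induced by light, had 12.1, 13.6 and 9.84 FPKM in replicate 2 of bbx18 bbx23, pif4 and WT, against 0.134, 0.253 and 0.041 FPKM in replicate 1. Every replicate 2 library lay above every replicate 1 library, and the mean difference of PRR9 was 3.48 ± 0.09 log2 (SD, n = 3). LNK1, a coactivator that works with RVE8, had 19.7, 18.7 and 16.7 FPKM, against 2.23, 2 and 1.47 FPKM. LNK3 was 2.38 ± 0.16 log2 higher and LNK4 2.05 ± 0.18 log2 higher, CDF1 (AT5G62430), a repressor of flowering, was 1.45 ± 0.19 log2 higher, and CCA1 itself 1.14 ± 0.15 log2 higher. LNK1 and LNK3 overlap an opposite-strand gene, and LNK4 a neighbour on its own strand. Of 15 morning genes compared, 7 were higher by the rule and 0 lower, with a median of 0.86 log2. LHY, the close relative of CCA1, stayed short of the rule at 0.69 ± 0.08 log2, and RVE4, another relative, had -1.11 ± 0.18 log2.

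Afternoon and evening clock genes did not share a direction. GI, a partner of the photoreceptor ZTL, had 8.55, 13.9 and 13.2 FPKM in replicate 2 of bbx18 bbx23, pif4 and WT, against 1.37, 1.21 and 1.65 FPKM in replicate 1. COR27, a cold and light regulated repressor, had 3.4, 5.11 and 3.73 FPKM, against 15.9, 31.8 and 26.3 FPKM. GI was thus above replicate 1 in each genotype and COR27 below it. TOC1 had a mean difference of -0.47 ± 0.02 log2, ELF3 one of -0.66 ± 0.10 log2 and LUX one of 0.36 ± 0.10 log2. Of 14 such genes compared, 1 was higher and 2 were lower, with a median of -0.10 log2. With neither hour nor light in the labels, a difference in hour and one in light between the replicates cannot be told apart.

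Of 16 genes in the high light list, 6 were higher in replicate 2 by the rule and 0 lower, with a median of 0.83 log2. ELIP1, a pigment-binding protein of stressed thylakoids, had 53.8, 62.4 and 39.4 FPKM in replicate 2 of bbx18 bbx23, pif4 and WT, against 1.57, 1.8 and 1.3 FPKM in replicate 1, and its relative ELIP2 had 19.3, 22.2 and 14.5 FPKM, against 1.76, 1.84 and 2.13 FPKM. SIG5, a nuclear-encoded sigma factor of the plastid RNA polymerase that answers to blue light, had 60, 53.3 and 53 FPKM, against 5.99, 6 and 4.69 FPKM. For ELIP1, ELIP2 and SIG5 the libraries of both replicates did not overlap. BCH2, a carotene hydroxylase of the xanthophyll pathway, was 2.46 ± 0.48 log2 higher. CRY3, a photolyase-like cryptochrome of organelles, was 1.25 ± 0.17 log2 higher. Among those short of the rule, APX1, an ascorbate peroxidase, had 0.55 ± 0.17 log2 and VDE, the violaxanthin de-epoxidase, -0.53 ± 0.04 log2, and BCH2 overlaps an opposite-strand gene.

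HY5, the bZIP factor at the centre of seedling light signalling, had 123, 116 and 90.5 FPKM in replicate 2 of bbx18 bbx23, pif4 and WT, against 25.4, 22.5 and 23.5 FPKM in replicate 1. Its homologue HYH had 73.6, 76.2 and 52.5 FPKM, against 23.8, 24 and 15.7 FPKM. RUP2 and RUP1, which return the UV-B receptor UVR8 to its inactive form, were higher too: RUP2 had 45.7, 40.1 and 46.1 FPKM, against 9.78, 8.69 and 12.6 FPKM, and RUP1 was 1.18 ± 0.16 log2 higher. All replicate 2 libraries were above all replicate 1 libraries for HY5 and HYH. PIF1 and PIF3, bHLH factors that repress light responses, were lower. PIF1, which overlaps an opposite-strand gene, had 5.35, 4.74 and 4.67 FPKM, against 15.1, 13.4 and 12.4 FPKM, and PIF3 had a difference of -1.27 ± 0.16 log2. Of 22 light signalling genes, 4 were higher and 2 lower, with a median of 0.00 log2.

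The early flavonol genes, which HY5 is known to activate, were higher where they passed the rule. MYB12, an activator of flavonol synthesis, had 15.6, 17.3 and 15.7 FPKM in replicate 2 of bbx18 bbx23, pif4 and WT, against 2.1, 2.06 and 1.78 FPKM in replicate 1. F3H, a flavanone hydroxylase that overlaps an opposite-strand gene, was 2.19 ± 0.11 log2 higher, and MYB111 was 1.89 ± 0.29 log2 higher. Of 15 flavonoid genes compared, 3 were higher and 0 lower, with a median of 0.57 log2. CHS, chalcone synthase at the entry of the pathway, stayed short of the rule at 0.72 ± 0.32 log2, and DFR and LDOX, which serve anthocyanin, were under 1 FPKM in all 6 libraries.

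**Figure D3:**
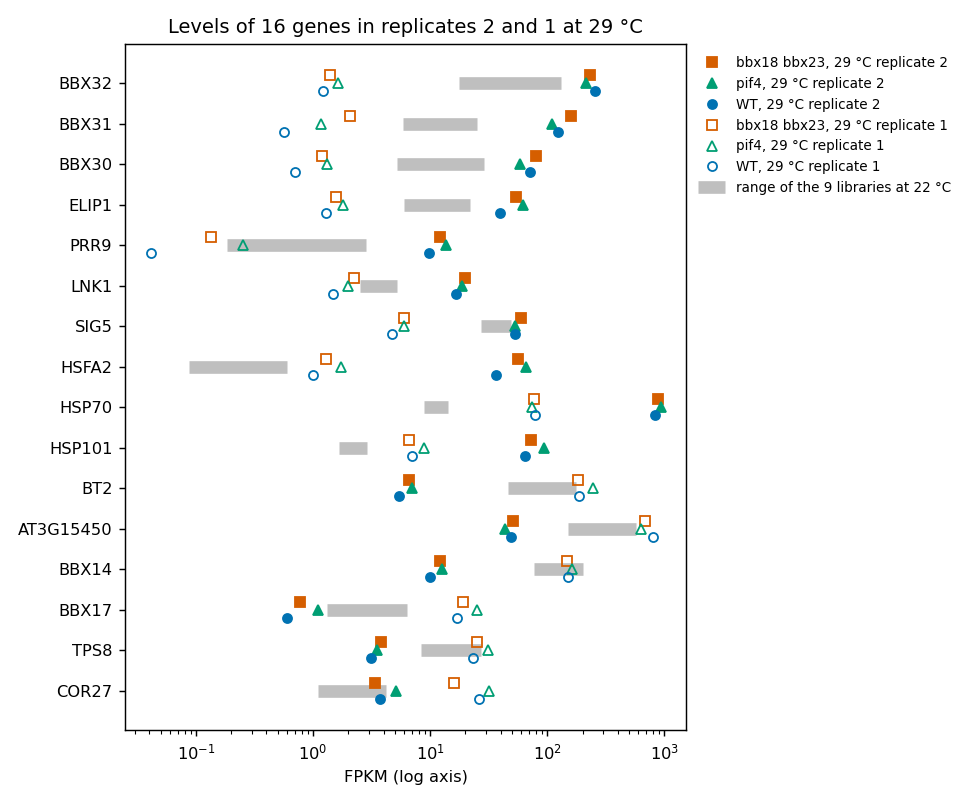
FPKM of 16 genes on a log axis are shown in replicate 2 (filled) and replicate 1 (open) of each genotype at 29 °C, with a grey bar over the range of the 9 libraries at 22 °C. BBX32 lies at 213 to 256 in replicate 2 and at 1.21 to 1.63 in replicate 1, and BT2 at 5.44 to 6.97 in replicate 2 and at 183 to 244 in replicate 1, while the 22 °C bars of both genes lie between.

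Heat shock genes formed the other main group among the higher genes. HSFA2, the heat shock factor that sustains the response, had 55.9, 66.4 and 36.4 FPKM in replicate 2 of bbx18 bbx23, pif4 and WT, against 1.29, 1.73 and 0.991 FPKM in replicate 1. HSP70, a cytosolic heat-induced HSP70 protein (AT3G12580), had 884, 929 and 833 FPKM, against 76.3, 74.2 and 78.9 FPKM. HSP101, which resolves protein aggregates, had 73.3, 94 and 64.1 FPKM, against 6.56, 8.8 and 6.96 FPKM. The ranges of the replicates were far apart in all 3 genes. HSP90.1, the heat-inducible HSP90, was 2.44 ± 0.31 log2 higher, and MBF1C, a coactivator of heat tolerance, 2.86 ± 0.21 log2 higher.

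Of 23 genes for HSP70, HSP90, HSP101 and their cochaperones, 12 were higher and 0 lower, with a median of 1.35 log2. Of 15 small heat shock proteins, 8 were higher and 0 lower, with a median of 1.60 log2. AT1G59860, a small heat shock protein, had 94.4, 93.1 and 55.6 FPKM in replicate 2 of bbx18 bbx23, pif4 and WT, against 4.27, 6.01 and 3.14 FPKM in replicate 1. HSP17.6II was 2.94 ± 0.74 log2 higher and AT5G37670 2.39 ± 0.93 log2 higher, so these 2 members varied more between genotypes than HSP70 (0.12 log2, SD) did. HSP21, the plastid small heat shock protein, stayed short of the rule at 0.82 ± 0.58 log2. Of 15 heat shock factors and regulators, 5 were higher and 0 lower, among them HSFB2B at 2.14 ± 0.26 log2. The HSFA1 factors, which start the response, all stayed short of the rule, with -0.28 ± 0.18 log2 for HSFA1A, -0.26 ± 0.08 log2 for HSFA1B, 0.27 ± 0.10 log2 for HSFA1D and 0.15 ± 0.05 log2 for HSFA1E. Of 13 chaperones of the endoplasmic reticulum, 1 was higher, ERDJ3A, with 5.63, 8.02 and 6.1 FPKM in replicate 2 of bbx18 bbx23, pif4 and WT, against 2.04, 2.38 and 1.75 FPKM in replicate 1. HSP101, MBF1C, HSFB2B and ERDJ3A overlap opposite-strand genes.

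The genes that were lower in replicate 2 included many that darkness and low sugar are known to raise. BT2, a BTB and TAZ domain protein, had 6.64, 6.97 and 5.44 FPKM in replicate 2 of bbx18 bbx23, pif4 and WT, against 183, 244 and 186 FPKM in replicate 1. AT3G15450, annotated as an aluminum induced protein, had 51.1, 43.3 and 49.4 FPKM, against 679, 635 and 802 FPKM. DRM1, a dormancy-associated protein, had 143, 134 and 159 FPKM, against 713, 644 and 931 FPKM. Replicate 2 lay below replicate 1 in every genotype for BT2, AT3G15450 and DRM1. TPS8, a class II trehalose phosphate synthase, was lower by -2.60 ± 0.20 log2, and TPS9, TPS10 and TPS11 of the same class by -1.83, -1.51 and -1.87 log2.

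Of 18 genes in the list for darkness and sugar starvation, 9 were lower and 1 was higher, with a median of -1.22 log2. The higher one was BZIP11, a bZIP factor whose translation sucrose represses, at 1.45 ± 0.10 log2, while BZIP1, a related factor of low-energy signalling, was lower by -1.88 ± 0.10 log2. SEN1 (AT4G35770) had -0.58 ± 0.18 log2 and ASN1, asparagine synthetase, -1.15 ± 0.17 log2. AT3G15450 overlaps an opposite-strand gene.

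KMD proteins are F-box proteins that target phenylalanine ammonia-lyase and the type-B cytokinin response regulators for breakdown. KMD1 had 10, 9.85 and 12.2 FPKM in replicate 2 of bbx18 bbx23, pif4 and WT, against 90.9, 71.8 and 143 FPKM in replicate 1, and KMD4 had 23.3, 20.5 and 25.4 FPKM, against 100, 71.5 and 146 FPKM. KMD3 had 1.09 FPKM in replicate 2 of bbx18 bbx23 and was listed at 0 in replicate 2 of pif4 and WT, against 21.2, 16.7 and 41.7 FPKM in replicate 1. All 3 were lower in every genotype. Of the 4 KMD genes 3 were lower by the rule, and KMD2 stayed just short at -1.03 ± 0.20 log2, with 1 genotype under 1 log2. Of the 5 BT genes 3 were lower, BT2, BT4 at -2.27 ± 0.22 log2 and BT5 at -2.19 ± 0.22 log2. KMD3, KMD4, BT4 and BT5 overlap opposite-strand genes, and both families were taken up after values were seen.

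The type-A response regulators, which cytokinin induces and which dampen its signal, were likewise taken up as a whole family after values were seen. ARR15 had 10.9, 13 and 13.1 FPKM in replicate 2 of bbx18 bbx23, pif4 and WT, against 1.67, 0.918 and 1.58 FPKM in replicate 1. ARR4 had 292, 322 and 316 FPKM, against 99.3, 99.1 and 114 FPKM. Of 9 members compared, 3 were higher by the rule (ARR15, ARR4 and ARR16), 0 were lower, and the median was 1.49 log2.

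Growth genes were less far apart. Over all genes compared, 1.69% were higher and 1.34% lower by the rule. Of 23 PIF targets and growth genes, 0 were higher and 2 lower, with a median of -0.63 log2: PAR1, a bHLH repressor of shade growth, at -2.11 ± 0.54 log2, and EXPA8, an expansin, at -1.16 ± 0.06 log2. ATHB2, a homeodomain factor of shade growth, had 6.32, 7.05 and 4.05 FPKM in replicate 2 of bbx18 bbx23, pif4 and WT, against 24.1, 11.8 and 23.8 FPKM in replicate 1, and pif4 kept it out of the rule. IAA29, an auxin repressor, had 0.516, 0.316 and 0.38 FPKM, against 8.64, 1.29 and 8.92 FPKM, so its replicate 1 level was lowest in pif4. YUC8, an auxin synthesis enzyme, had -0.63 ± 0.54 log2.

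The lists for starch, nitrate and sulphate, and cold each had members past the rule, where 1.69% of all genes were higher and 1.34% lower. GBSS1, the granule-bound starch synthase that makes amylose and is under clock control, had 73.8, 48.9 and 58.2 FPKM in replicate 2 of bbx18 bbx23, pif4 and WT, against 10.1, 5.57 and 8.77 FPKM in replicate 1, and was the 1 higher gene of 16 in starch metabolism. APR2, an enzyme of sulphate reduction, was 1.41 ± 0.06 log2 higher and NIA1, a nitrate reductase, lower by -1.12 ± 0.09 log2, out of 14 genes for nitrate, sulphate and glucosinolates. Of 13 cold-regulated genes 2 were higher, CBF3 at 1.73 ± 0.03 log2 from levels of at most 2.98 FPKM, and KIN2 at 1.34 ± 0.35 log2. The cold list had a median of 0.46 log2 with 11 members above 0 in all genotypes, and CBF2, a relative of CBF3, stayed short of the rule at 1.38 ± 0.63 log2. KIN2 has a close copy, KIN1, and CBF3 and APR2 overlap opposite-strand genes, so reads may be shared.

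Several lists had no member past the rule. These were the 21 genes of the photosynthetic antenna (median 0.26 log2), 15 of chlorophyll synthesis (0.02 log2), 18 of handling and rapid stress (0.07 log2), 7 of cell division (-0.25 log2) and the 8 reference genes (0.03 log2). By the rule 1.69% of all genes were higher and 1.34% lower, so 0 members in lists of this size is near those shares. ACT2, an actin, had 664, 645 and 819 FPKM in replicate 2 of bbx18 bbx23, pif4 and WT, against 673, 600 and 875 FPKM in replicate 1. UBQ10 was the reference gene that differed most, at 0.39 ± 0.19 log2. Of 6 root markers, 0 passed the rule and 5 were above 0 in all genotypes, with a median of 0.43 log2, and the part of root tissue in the results was not tested. PYK10, a root beta-glucosidase and the root marker with the highest FPKM, had 1620, 1540 and 1910 FPKM in replicate 2 of bbx18 bbx23, pif4 and WT, against 1610, 1580 and 1410 FPKM in replicate 1. Over 18975 genes with a length in the annotation, the mean difference had a Spearman correlation of -0.24 with gene length. The higher and lower genes had median lengths of 1834 and 2093 bases, against 2360 bases for all genes, and the part of transcript length was not tested.

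**Figure D4:**
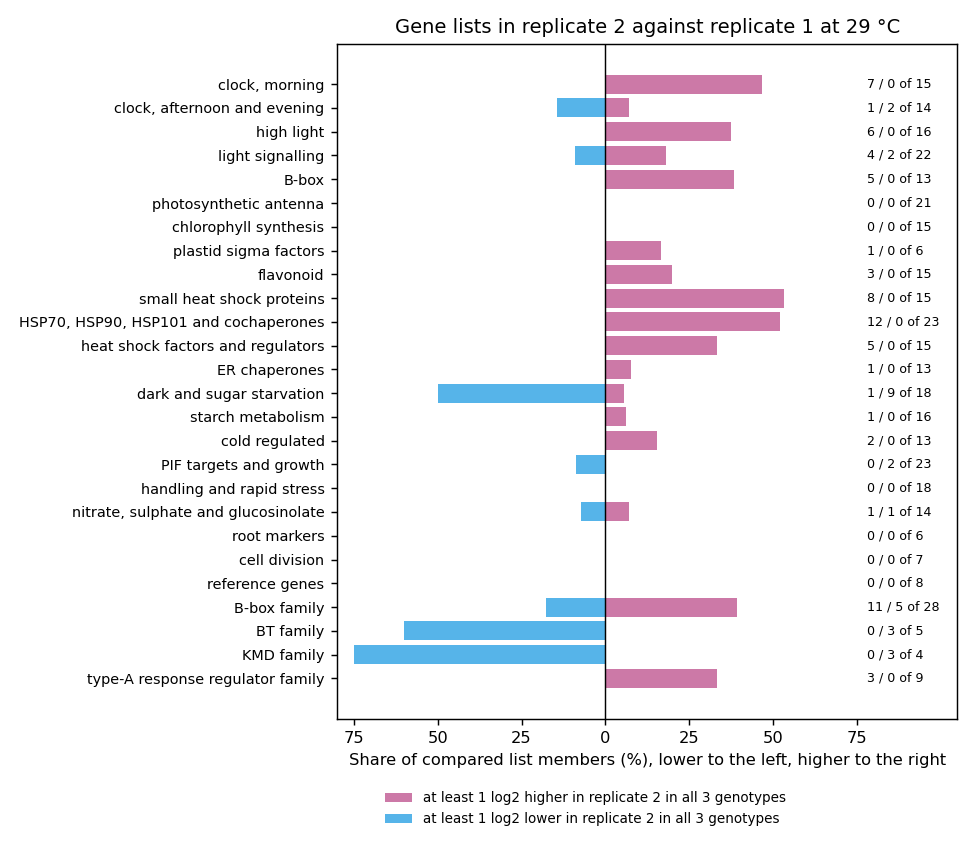
Bars give the share of each list's compared members that were at least 1 log2 higher (right) or lower (left) in replicate 2 than in replicate 1 at 29 °C in all 3 genotypes, with the counts of higher and lower members at the right edge. Heat shock and morning clock lists have the longest bars to the right among lists of over 10 genes, with 12 of 23, 8 of 15 and 7 of 15, and the list for darkness and sugar starvation the longest to the left, with 9 of 18, against 1.69% and 1.34% of all genes.

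Relative to 22 °C, many of these genes lay on opposite sides in both replicates. Of the 324 higher genes, 180 (55.6%) were above the 22 °C mean of their genotype in replicate 2 and below it in replicate 1, in all 3 genotypes. In 99 genes (30.6% of the 324), replicate 2 lay above and replicate 1 below all 3 libraries of the same genotype at 22 °C, in each genotype. Of the 256 lower genes, 177 (69.1%) were below the 22 °C mean in replicate 2 and above it in replicate 1. In 88 (34.4%), replicate 2 lay below and replicate 1 above all 3 libraries of the same genotype at 22 °C. A gene chosen for a wide gap between replicates 2 and 1 has more room to lie on both sides of 22 °C. These counts are therefore a description, and no such share was computed over all genes.

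The difference from 22 °C therefore varied with the replicate. Against the 22 °C mean of each genotype, ELIP1 was at 2.18 ± 0.23 log2 in replicate 2 at 29 °C, at -2.17 ± 0.29 log2 in replicate 1 and at -0.70 ± 0.27 log2 in replicate 3 (SD, n = 3 genotypes). BBX18 was at 1.34 ± 0.19, -1.37 ± 0.15 and 0.36 ± 0.27 log2, in the same order. HSP70 was above 22 °C in every replicate, at 6.19 ± 0.14, 2.68 ± 0.24 and 3.89 ± 0.26 log2. Of the 15 small heat shock proteins, 15 had a mean above 22 °C in every replicate, as had 13 of the 23 genes for HSP70, HSP90, HSP101 and cochaperones, while 8 of those 23 lay above it in replicate 2 and below it in replicate 1. GBSS1 was below 22 °C in every replicate, at -1.17 ± 0.18, -3.93 ± 0.31 and -2.94 ± 0.33 log2. BT2 was at -4.01 ± 0.46 log2 in replicate 2, 0.78 ± 0.56 log2 in replicate 1 and -2.27 ± 0.45 log2 in replicate 3.

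Replicate 3 at 29 °C, which the choice of genes did not use, mostly lay between the other replicates. The comparison and the genes were chosen for a wide gap between replicates 2 and 1, which leaves more room between them. The shares below are therefore a description, and none was computed over all genes. For genes picked on the other genotypes, replicate 3 fell between replicates 2 and 1 in 94.4% of 359 higher genes and 94.9% of 293 lower genes in bbx18 bbx23. These shares were 85.8% of 353 and 84.7% of 333 in pif4, and 80.5% of 411 and 85.9% of 312 in WT. ARR7 was an exception, with 89.4, 53 and 104 FPKM in replicate 3 of bbx18 bbx23, pif4 and WT, 35.3, 33.3 and 28.9 FPKM in replicate 2, and 8.69, 19.8 and 5.69 FPKM in replicate 1.

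At 22 °C, where the genes were not chosen, replicate 2 was tested against replicate 1 with limma on the 9 libraries, with terms for genotype and replicate number. The labels do not say that numbers pair libraries. Between bbx18 bbx23 and WT, deviations from genotype means correlated at 0.131, -0.056 and 0.561 for replicates 1, 2 and 3 at 22 °C. These correlations were 0.502, 0.491 and 0.604 between pif4 and WT, and 0.228, 0.008 and 0.523 between both mutants. The match by number was thus weak for bbx18 bbx23 in replicates 1 and 2. The test called 41 of 19116 genes (0.214%) at a Benjamini-Hochberg adjusted p under 0.05, 29 higher and 12 lower in replicate 2. Of the 580 genes from 29 °C, 27 were called (4.66%), 22 higher and 5 lower. All 22 were among the 256 genes lower in replicate 2 at 29 °C, and all 5 among the 324 higher ones, so each was opposite in direction at the other temperature. The 22 make 75.9% of the 29 genes called higher at 22 °C and 8.59% of the genes lower at 29 °C, and the 5 make 41.7% of the 12 called lower and 1.54% of the genes higher at 29 °C. The count varied with the setting: without the libraries of bbx18 bbx23 146 genes were called, 58 higher and 88 lower, without those of pif4 16, and without the filter on low values 0.

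Cytokinin response and KMD genes were among those called at 22 °C. ARR15 averaged 3.89 ± 1.27 FPKM in replicate 2 at 22 °C and 12.8 ± 4.42 FPKM in replicate 1 (SD, n = 3 genotypes), a difference of -1.48 ± 0.14 log2 (SE) with a limma adjusted p of 0.00297. CRF2, a cytokinin response factor, averaged 12.5 ± 1.67 FPKM in replicate 2 and 30.3 ± 0.869 FPKM in replicate 1, with a limma adjusted p of 0.00141. ARR6, ARR7 and ARR5 were called lower as well, so 4 of the 9 type-A regulators compared fell in replicate 2 at 22 °C. KMD1 averaged 47.0 ± 11.7 FPKM in replicate 2 and 21.3 ± 8.56 FPKM in replicate 1, with a limma adjusted p of 0.0303, and KMD4 and KMD3 were called higher too. KMD3 was listed at 0 in replicate 1 of all genotypes at 22 °C and averaged 9.49 FPKM in replicate 2.

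BT5 averaged 49.6 ± 6.74 FPKM in replicate 2 at 22 °C and 14.9 ± 1.58 FPKM in replicate 1, a rise of 1.67 ± 0.18 log2 (SE) with a limma adjusted p of 0.00782. CIB1, a bHLH partner of the photoreceptor CRY2, rose by 1.42 ± 0.17 log2 (SE) with a limma adjusted p of 0.0128. BBX17 rose by 0.83 ± 0.13 log2 (SE) with a limma adjusted p of 0.0421, the 1 call in the B-box family. RVE1, a morning MYB factor, rose by 0.92 ± 0.12 log2 (SE) with a limma adjusted p of 0.0233, although it had only -0.28 ± 0.29 log2 (SD) at 29 °C. No gene of the heat shock, high light, flavonoid or antenna lists was called at 22 °C. Only 0.214% of all genes were called, so 0 in lists of this size is near that share. BBX32 had -1.18 ± 0.26 log2 (SE) there with a limma adjusted p of 0.154.

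**Figure D5:**
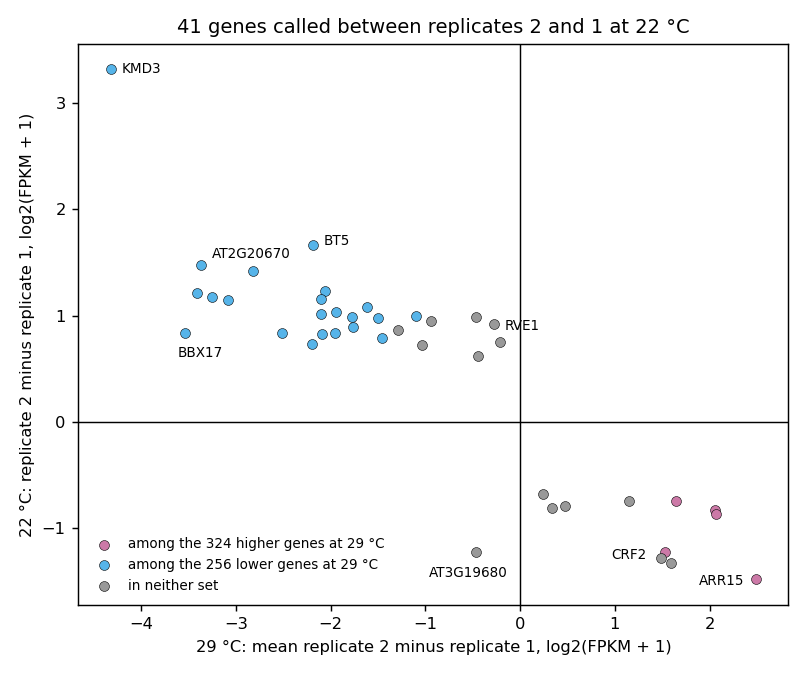
The 41 genes called between replicates 2 and 1 at 22 °C are plotted by their mean difference at 29 °C (horizontal) and their limma estimate at 22 °C (vertical), both replicate 2 minus replicate 1 on log2(FPKM + 1). All 29 genes above 0 at 22 °C lie below 0 at 29 °C, 11 of the 12 below 0 at 22 °C lie above 0 at 29 °C, and KMD3 is placed against a replicate 1 listed at 0 at 22 °C.

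The comparisons of genotypes at 29 °C used limma on the 9 libraries there, with no term for replicate number. They gave 0 called genes of 19116 (0%) in bbx18 bbx23 against WT, with 200 at an unadjusted p under 0.05, and with a replicate block 0, with 462 at an unadjusted p under 0.05. Both 200 and 462 are under a share of 0.05 of the genes, the average share where no gene differs. Neither number is therefore a sign of differences short of the threshold, and why they were so low was not tested. In pif4 against WT, 16 genes were called (0.0837%), 6 higher and 10 lower. That count was 7 without pif4 replicate 2, WT replicate 1 or WT replicate 3, 9 without WT replicate 2 and 10 without pif4 replicate 3. It was 1, 2 and 0 without replicate 1, 2 and 3 of all genotypes at 29 °C.

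For bbx18 bbx23 against WT, the median standard error of a difference over the 580 genes was 0.56 log2 without and 0.158 log2 with the replicate block. Over all genes compared it was 0.185 log2 without and 0.152 log2 with the block. The 580 genes were chosen for a wide gap within each genotype, which fixes a large standard error without the block, so these values describe how far such genes could be compared. HSFA2 differed by 0.23 ± 1.52 log2 (SE) between bbx18 bbx23 and WT without the block, with a limma adjusted p of 1.0.

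Between genotypes the differences of replicate 2 and replicate 1 seldom opposed each other. By the rule for such genes, a difference of 1 log2 each way and a mean of 5 FPKM, 4 of 19116 were found: AT2G01021, AT1G25055, AT1G23052 and AT4G39363. The 580 shared genes did not have to reach that mean, so their count is not directly comparable. AT2G01021, AT1G25055 and the snoRNA AT4G39363 have close copies in the genome, and AT1G23052 overlaps an opposite-strand gene, so their values are uncertain. AT4G39363, for instance, had 3.2, 2.31 and 13.9 FPKM in replicate 2 of bbx18 bbx23, pif4 and WT, against 5.5, 6.01 and 3.3 FPKM in replicate 1. PIF4 itself had a mean difference of 0.01 ± 0.25 log2.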

How the data were processed

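RNA libraries of seedlings were made with a TruSeq kit, per the labels' protocols, and the authors deposited FPKM per gene in 1 table with 1 column per library (18 columns, 0 without a sample). Alignment used Bowtie 0.12.2, per the submitters' processing notes, which name a mouse build; no source used here gives the genome, annotation, counter or strand setting behind these Arabidopsis values. The read number per library is not part of the table, so no counting interval was computed. The summed FPKM ran from 744698 to 1162160, median-of-ratios size factors from 0.962 to 1.044, and 17791 to 18367 genes had at least 1 FPKM. Gene names, promoters and overlaps came from TAIR10.1, which held 32835 of the 33602 identifiers, and close copies from blastn 2.17.0.

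The comparison, gene lists and families were chosen with earlier results of these data known. Differences were taken on log2(FPKM + 1) after a filter of 1 FPKM in 3 libraries. Tests were 2-sided moderated tests in limma 3.58.1 (R 4.3.3) with a trend on the mean and Benjamini-Hochberg adjustment over all genes at 0.05. Named genes were the 10 higher and 10 lower shared genes of largest mean difference with a mean of 5 FPKM in the higher replicate, up to 5 opposed between genotypes, up to 4 shared members per list, BBX18 and PIF4. Members of a counted list that are given with a value short of the rule, and the genes called at 22 °C, were chosen after their values were seen. On simulated data with 100 genes per fold size among 19116, the test at 22 °C called 99% of genes changed by 1 log2, with 10 false calls. For bbx18 bbx23 and pif4 against WT at 29 °C it called 59% and 58%, with 6 false calls each. The simulated noise was independent between genes and libraries, with no part shared by libraries of the same number. The libraries at 29 °C did share such a part, so these shares and false calls are not those of the real comparisons.

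As a check of whether numbers pair libraries, deviations from the means of each genotype at 29 °C were correlated over genes. For bbx18 bbx23 and WT the correlations were 0.70, 0.73 and 0.24 for replicates 1, 2 and 3, all over 0.1. Those of replicates 1 and 2 come from the libraries that the comparison was chosen on, so they are no separate check. The labels do not state the pairing. The genotype comparisons therefore had no replicate block, and the blocked fit is an alternative. Alternatives were a pseudocount of 0.1, no filter, size factors, a threshold of 2 log2, no variance trend, fewer or more libraries, a replicate block and each library or genotype left out. Figures were drawn with matplotlib 3.10.9.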

Additional observations from a re-analysis of the deposited data

Results flagged for a closer look

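For 30 of the 71 named genes, replicate 2 lay on one side of replicate 1 in all 3 genotypes at 29 °C and on the other side in all 3 at 22 °C. That difference between temperatures was not tested, since the genes were chosen by their values at 29 °C. The values below are mean differences at 22 °C on log2(FPKM + 1).

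Among genes higher in replicate 2 at 29 °C, the B-box genes BBX32, BBX31, BBX30 and BBX24 had -1.18, -0.58, -0.67 and -0.25 log2 at 22 °C. ELIP1 had -0.50 log2, the HSP70 genes HSP70 and AT3G09440 had -0.20 and -0.24 log2, and AT1G24580, AT2G27420 and AT2G15020 had -0.43, -0.68 and -0.24 log2. KIN2 had -0.52 log2 and APR2 -0.31 log2. The response regulators ARR15, ARR4 and ARR16 had -1.48, -0.64 and -0.28 log2.

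Among genes lower in replicate 2 at 29 °C, the KMD genes KMD1 and KMD4 had 1.15 and 1.16 log2 at 22 °C. KMD3 had 3.32 on this scale, where its replicate 1 was listed at 0. BT2, BT4 and BT5 had 0.77, 0.38 and 1.67 log2, and BBX14 and BBX17 had 0.46 and 0.83 log2. AT3G15450, ATCTH, AT2G20670 and AT5G61590 had 0.58, 1.21, 1.47 and 1.17 log2. COR27 had 0.48 log2, PIF1 0.30 log2 and TPS8 0.57 log2.

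Over all 19116 genes, 1085 were above 0 in all 3 genotypes at 29 °C and below 0 in all 3 at 22 °C, 1337 were the reverse, and 282 and 280 were above 0 and below 0 at both temperatures.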

How the results depend on the processing

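At 29 °C the 580 shared genes became 758 with a pseudocount of 0.1, 579 with size factors, 580 without the filter and 652 to 723 without the pair of 1 genotype. They became 427 without genes that overlap another on the opposite strand, an alternative added after the data were seen, and 111 at a threshold of 2 log2. A shared difference of 1 log2 already needs 1 FPKM in 3 libraries, so leaving out the filter could not change the 580. A smaller pseudocount or a pair left out could only add genes. At 22 °C the 9 shared genes became 14 with a pseudocount of 0.1, 1 at 2 log2, 17 without the WT pair and 20 without the pif4 pair.

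The 41 calls at 22 °C became 0 without the filter, 11 without a variance trend, 22 with only replicates 1 and 2, 146 without the libraries of bbx18 bbx23 and 16 without those of pif4; the cause was not tested. The bbx18 bbx23 contrast at 29 °C had 0 calls with and without the replicate block and 3 with all 18 libraries. The 16 calls in pif4 against WT became 26 with the replicate block, 26 with all 18 libraries and 10 without the filter. They became 7 to 11 with a library of pif4 or WT left out, and 1, 2 and 0 without replicate 1, 2 and 3 of all genotypes at 29 °C. For pif4 and WT the pairing correlations were 0.47, 0.69 and -0.32, so the samples share a number only; the blocked fit called 4 of the 580 genes, all lower in pif4 than in WT, and the fit to all 18 libraries 0 of them.

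Of 355 mean differences of the 71 named genes under alternatives, 326 moved by less than the spread (SD) between genotypes and 29 by more. Leaving out the pair of a genotype always moves the mean by less than this SD, so those rows were fixed and test nothing. With size factors, all 71 moved by less than the spread. With a pseudocount of 0.1, 42 moved by less and 29 by more. All 29 moved away from 0, the only direction in which a smaller pseudocount can move a shared gene. The 66 shared genes among the 71 had 0 changes of sign under 330 alternatives. The other 5, PIF4 and the 4 genes opposed between genotypes, had 7 changes of sign under 25. A shared gene has the same direction in each pair. Leaving out a pair or lowering the pseudocount therefore could not change its sign. Low levels limit the genes listed at or near 0 in a replicate, such as KMD3 and PRR9.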
